A study of Mus musculus with 36 samples.

Results

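The genes described here are 38 genes of sterol and fatty acid metabolism, chosen by name, among 16439 genes in the deposited table. They fall into 5 groups by role: 9 enzymes from acetyl-CoA through mevalonate to squalene epoxide, 9 enzymes from squalene epoxide to cholesterol, 5 genes that control SREBP (sterol regulatory element-binding protein), 10 genes of fatty acid synthesis, desaturation and elongation, and 5 genes that move or esterify cholesterol, or, in the case of Lpin1, make diacylglycerol. The last group and the SREBP genes are no synthesis enzymes of sterols or fatty acids, so the 38 are a pathway with its regulators and neighbours. All 38 passed the filter on low values.

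RNA was measured in mouse bone marrow-derived macrophages (BMDMs), which are primary cells grown from marrow for 7 days. Their RPMI contained 10% supernatant of L929 cells, a source of the growth factor M-CSF, and 10% fetal calf serum. The cells carried either wild-type Tnip2 (WT) or Tnip2 with the D310N change, written D309N in the header of the table. TNIP2 binds ubiquitin chains and takes part in NF-κB and MAP kinase signalling. Cells of each genotype were left unstimulated (0 min) or received 100 ng/ml of the Toll-like receptor 4 ligand lipopolysaccharide (LPS) for 30, 60, 120, 240 or 360 min, with 3 libraries in each of 12 groups and 36 libraries in all. All groups shared the serum-containing culture, and serum lipoproteins supply cholesterol. The labels give neither the mice behind each library nor whether marrow was pooled, so p-values measure the spread between these libraries, which may be technical. In bulk RNA, fewer expressing cells and less RNA per cell cannot be told apart.

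Cholesterol is built from acetyl-CoA through mevalonate, isoprenoid diphosphates and squalene, which is oxidised and cyclised to lanosterol and then trimmed to cholesterol. When membrane sterol is low, SCAP escorts SREBP from the endoplasmic reticulum to the Golgi, where proteases release a transcription factor that turns on most of these genes. INSIG proteins hold the complex back when sterol is plentiful. SREBP-1, from Srebf1, acts more on fatty acid genes, and SREBP-2, from Srebf2, acts more on sterol genes. In macrophages this pathway meets inflammation at several points, among them the oxysterol made by CH25H, which holds back SREBP release.

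Promoters are shown because SREBP acts there together with the CCAAT-binding factor NF-Y. RefSeq promoter windows (GRCm38.p6, 250 bases before to 50 after a start) were matched for 30 of 38 members, giving 38 windows. The classical sterol regulatory element was searched as TCACNCCAC and the NF-Y box as CCAAT, both on both strands. The sterol element lay in 1 member window, that of Hmgcs1 (2.63% of member windows, against 1.24% of 32851 windows of all genes). CCAAT lay in 25 member windows (65.8%, against 37.4% of all windows). The sequences below are the 250 bases before the start, 5′ to 3′ on the gene's strand, with matches in capitals (ATTGG is CCAAT on the other strand). They cover chr13:119690101-119690350 (+) for Hmgcs1, chr8:122443423-122443672 (-) for Mvd, chr3:89454291-89454540 (+) for Pmvk and chr11:120824548-120824797 (-) for Fasn. Hmgcs1 carries the element, Mvd and Pmvk are enzymes of the same group without it, and Fasn was added after its values were seen, because its response to LPS differed between genotypes.
Hmgcs1: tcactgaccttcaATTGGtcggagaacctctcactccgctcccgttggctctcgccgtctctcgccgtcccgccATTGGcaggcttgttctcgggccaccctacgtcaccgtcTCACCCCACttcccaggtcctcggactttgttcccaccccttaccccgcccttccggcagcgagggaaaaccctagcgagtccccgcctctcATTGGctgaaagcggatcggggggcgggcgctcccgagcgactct
Mvd: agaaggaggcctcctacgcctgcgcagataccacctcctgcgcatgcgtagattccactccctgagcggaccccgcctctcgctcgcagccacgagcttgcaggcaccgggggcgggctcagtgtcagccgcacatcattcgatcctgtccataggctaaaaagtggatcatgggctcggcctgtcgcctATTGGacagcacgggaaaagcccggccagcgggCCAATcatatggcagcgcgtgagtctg
Pmvk: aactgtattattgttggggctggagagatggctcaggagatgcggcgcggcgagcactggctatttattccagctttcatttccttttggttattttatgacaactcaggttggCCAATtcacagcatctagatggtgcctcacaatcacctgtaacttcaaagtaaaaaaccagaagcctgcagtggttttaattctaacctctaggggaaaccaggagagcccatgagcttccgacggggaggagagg
Fasn: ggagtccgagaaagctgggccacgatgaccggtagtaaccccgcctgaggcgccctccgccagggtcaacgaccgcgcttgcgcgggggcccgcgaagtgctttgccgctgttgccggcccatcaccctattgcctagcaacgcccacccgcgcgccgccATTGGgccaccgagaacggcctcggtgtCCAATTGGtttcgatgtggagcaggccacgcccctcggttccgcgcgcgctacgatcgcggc
In Hmgcs1 the sterol element began 137 bases before the start, with CCAAT boxes at 237, 176 and 45 bases. Mvd held CCAAT boxes at 60 and 27 bases, and Pmvk held 1 at 136 bases. Fasn held boxes at 90, 62 and 59 bases, the last pair overlapping on opposite strands. A match of letters is no proof of a site, and a window without the letters says nothing of SREBP.

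Values are the deposited log2 expression values, and differences are differences of those values with their standard error (SE) from limma's moderated test across 11656 genes; a gene was called at a Benjamini-Hochberg adjusted p under 0.05. Library medians ranged from 6.83 to 7.2. The library labelled WT 360 min replicate 1 stood apart: its root mean square deviation from its group mean was 0.246, against 0.177 and 0.157 for the other 2 libraries of that group and 0.0837 to 0.128 elsewhere. Tnip2 itself averaged 8.82 ± 0.05 (SD, n = 3) in WT and 8.87 ± 0.02 (SD, n = 3) in D310N at 0 min; a transcript level does not show a point mutation, so it does not check the labels. All 10 macrophage markers were above the filter, at a summed log2 level of 17.87 to 18.18 in WT and 17.81 to 18.17 in D310N libraries, whereas 8 of 10 neutrophil markers, including Ly6g, Mpo and Elane, were under 10 on the linear scale in every library. The neutrophil list summed to 4.50 to 5.11 in WT and 4.69 to 5.44 in D310N libraries, and the dendritic list to 4.74 to 7.97 and 4.78 to 7.69. The T cell list summed to 6.42 to 7.16 and 5.98 to 7.02. The adipocyte list, with 1 of 5 genes present, lay at 7.69 to 9.03 and 7.72 to 9.28. On average over the times, 3 macrophage markers were called higher and 6 lower in D310N. The calls were 2 and 0 for neutrophil, 2 and 1 for dendritic, 0 and 1 for T cell and 1 and 0 for adipocyte markers. Of 15 proliferation genes, 14 were called lower and 1 higher in D310N on average over the times (median log2 difference -0.64).

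In WT cells LPS lowered many of these genes from 120 min on. It raised a smaller set led by Hmgcs1 and Idi1, of the mevalonate and squalene enzymes, and by the SREBP regulators Insig1 and Scap. The largest falls were those of Lpin1, 7.8-fold at 360 min, and Scd2, 5.86-fold at 240 min. Of 38 members, 1 was called at 30 min (6.09% of all tested genes were called), 9 at 60 min (37.2%), 27 at 120 min (66.6%), 30 at 240 min (80%) and 33 at 360 min (80.4%). As a share of the members these are 2.63%, 23.7%, 71.1%, 78.9% and 86.8%, so from 120 min on the number of changed members was close to that of all genes, most of which changed. Directions were less even. At 120 min 7 members were higher and 20 lower (18.4% and 52.6% of members, against 32.4% and 34.2% of all genes). At 240 min 9 were higher and 21 lower (23.7% and 55.3%, against 39.6% and 40.4%). At 360 min 14 were higher and 19 lower (36.8% and 50%, against 39.3% and 41%). The members' median log2 change was -0.21, -0.29 and -0.18 at these times, beside -0.02, -0.02 and -0.03 over all genes. Quantile normalisation of the libraries moved calls downward over all genes too. After it 2 members were higher and 22 lower at 120 min, against 27.4% and 40.3% of all genes. At 60 min 4 were higher and 11 lower in place of 5 and 4 (16% and 29.4% of all genes), and at 30 min 1 and 2 in place of 1 and 0 (5.14% and 5.32%).

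**Figure D1:**
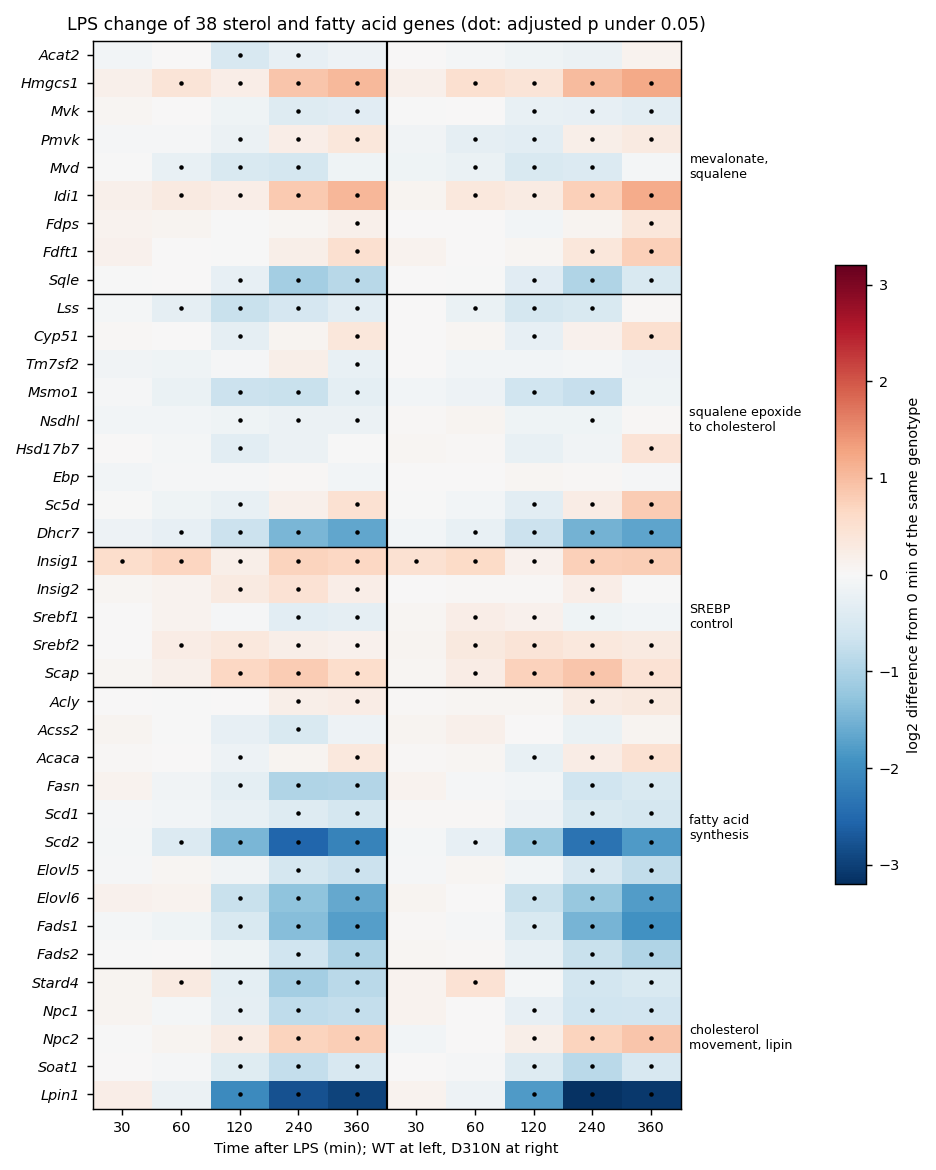
Log2 difference from 0 min of the same genotype for each of 38 members (rows, by role) at 5 times after LPS (columns, in min), WT at left and D310N at right; red is higher, blue lower, and a dot marks an adjusted p under 0.05. Lpin1 and Scd2 are the darkest blue in both genotypes, Hmgcs1, Idi1 and Insig1 the steadiest red at 240 and 360 min, and Ebp carries no dot. The red of Srebf2, Acly and Npc2 at 240 and 360 min became values below 0 after quantile normalisation.

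The mevalonate and squalene enzymes split. Hmgcs1, which makes HMG-CoA, rose 2.05-fold by 360 min. In WT its libraries stood at 10.09, 10.18 and 10.13 at 0 min, 11.08, 11.01 and 10.99 after 240 min and 11.01, 11.21 and 11.29 after 360 min. No library after 240 or 360 min overlapped those at 0 min (log2 difference 0.89 ± 0.07 SE, adjusted p = 3.18e-13, and 1.04 ± 0.07 SE, adjusted p = 7.39e-15, limma). Idi1, which isomerises isopentenyl diphosphate, rose by 0.84 ± 0.09 SE at 240 min and 1.05 ± 0.09 SE at 360 min. Sqle, the epoxidase that commits squalene to sterols, fell. Its WT libraries lay at 9.65, 9.73 and 9.66 at 0 min and at 8.61, 8.58 and 8.54 after 240 min, without overlap (log2 difference -1.10 ± 0.08 SE, adjusted p = 2.16e-13, limma). In D310N they lay at 9.60, 9.59 and 9.63, and at 8.53, 8.79 and 8.60 (-0.96 ± 0.08 SE). Mvd, the mevalonate diphosphate decarboxylase, fell by 0.57 at 240 min, and Mvk, the mevalonate kinase, fell by 0.41. Over the group, 3 of 9 members were higher and 4 lower at 240 min (4 and 2 after quantile normalisation), and 5 higher and 2 lower at 360 min, among them Fdft1, the squalene synthase, at 0.50 ± 0.10 SE. Hmgcs1 and Idi1 rose as early as 60 min (0.41 ± 0.07 and 0.29 ± 0.09 SE). At 120 min Hmgcs1 was 0.22 above 0 min on the deposited scale and -0.01 after quantile normalisation.

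The enzymes after squalene epoxide were mostly lower at 120 min and mixed later. In WT at 120 min 7 of 9 were called lower and 0 higher (limma; 0 higher also after quantile normalisation), at 240 min 4 lower and 0 higher (limma; 1 higher after quantile normalisation and 2 after trimmed mean centring), and at 360 min 5 lower and 2 higher. In D310N 5 were lower and 0 higher at 120 min (limma), 4 lower and 1 higher at 240 min, and 1 lower and 3 higher at 360 min. The shares of all genes by direction are not given for D310N on the deposited scale. After trimmed mean centring 32.3%, 39.5% and 39.7% of all genes were called lower at these times, and 31.7%, 39.5% and 40.6% higher. Dhcr7, a reductase at the end of the pathway, was lower at each later time. Its WT libraries were 8.53, 8.48 and 8.56 at 0 min, 6.98, 7.05 and 7.13 after 240 min and 6.96, 6.77 and 6.85 after 360 min, and those of D310N were 8.43, 8.60 and 8.48, then 6.83, 6.98 and 7.15, then 6.90, 6.82 and 6.74. Neither genotype had a stimulated library at these 2 times as high as its lowest unstimulated one (WT at 360 min -1.66 ± 0.08 SE, adjusted p = 8.83e-19, limma). Lss, the lanosterol synthase, and Msmo1, a methylsterol oxidase, fell to -0.72 ± 0.08 and -0.69 ± 0.10 SE at 120 min and stood at -0.33 and -0.31 at 360 min. Cyp51, the lanosterol demethylase, and Sc5d, the lathosterol oxidase, were lower at 120 min (-0.28 ± 0.07 and -0.25 ± 0.08 SE) and higher at 360 min (0.35 ± 0.07 and 0.49 ± 0.08 SE). Ebp, a sterol isomerase, was not called at any time in either genotype.

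Of the 5 SREBP regulators 4 were higher and 1 lower at 240 min (3 and 2 after quantile normalisation). Insig1 responded first and was the member called at 30 min. Its WT libraries went from 10.30, 10.32 and 10.32 at 0 min to 10.91, 10.86 and 10.83 after 30 min and 11.02, 10.99 and 10.97 after 60 min. The groups did not overlap (0.55 ± 0.04 SE and 0.68 ± 0.04 SE; adjusted p at 60 min = 5.42e-15, limma). It came back to 0.19 above 0 min at 120 min (-0.05 after quantile normalisation) and was at 0.70 again at 240 min. Scap, the SREBP escort, rose by 0.67, 0.81 and 0.57 at 120, 240 and 360 min (each SE 0.07). Insig2 rose by 0.45 ± 0.06 SE at 240 min. Srebf1 fell by 0.33 ± 0.05 SE at 240 min, and Srebf2 was 0.19 ± 0.05 SE higher on the deposited scale but -0.41 after quantile normalisation.

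Most of the fatty acid genes fell: 8 of 10 were called lower and 1 higher at 240 min (8 and 0 after quantile normalisation), with a median of -0.60. Scd2, a stearoyl-CoA desaturase, led them. Its WT libraries were 11.68, 11.77 and 11.71 at 0 min, 10.24, 10.27 and 10.29 after 120 min, 9.07, 9.19 and 9.26 after 240 min and 9.45, 9.68 and 9.64 after 360 min. D310N libraries were 11.74, 11.79 and 11.76, then 10.49, 10.64 and 10.63, then 9.32, 9.37 and 9.49, then 9.84, 10.13 and 9.86. In both genotypes the lowest time was 240 min and the groups did not overlap with 0 min (WT -2.55 ± 0.07 SE, adjusted p = 1.35e-25; limma). Fads1, a front-end desaturase of polyunsaturated fatty acids, stood at 11.12, 11.10 and 11.07 in WT at 0 min and at 9.77, 9.19 and 9.04 after 360 min. The library WT 360 min replicate 1 was the highest of the latter 3, and all were lower than at 0 min (-1.76 ± 0.09 SE, adjusted p = 1.17e-17, limma). In D310N Fads1 went from 11.02, 11.08 and 11.07 to 9.11, 9.17 and 9.06. Elovl6, which lengthens palmitate, went in WT from 6.55, 6.76 and 6.52 to 4.76, 5.21 and 4.97 after 360 min, and in D310N from 6.70, 6.75 and 6.73 to 4.91, 5.07 and 4.81. The groups did not overlap (WT -1.63 ± 0.10 SE, adjusted p = 1.94e-15, limma). Fasn, the fatty acid synthase, fell by 0.97 ± 0.08 SE at 240 min, and Elovl5, Fads2 and Scd1 fell by 0.57, 0.63 and 0.41. Acaca, the acetyl-CoA carboxylase that supplies Fasn with malonyl-CoA, was 0.16 lower at 120 min and 0.33 ± 0.05 SE higher at 360 min. Acly, which makes cytosolic acetyl-CoA, was 0.18 ± 0.03 SE higher at 240 min as deposited and -0.47 after quantile normalisation.

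Among the genes of cholesterol movement and lipin, 4 of 5 were called lower and 1 higher at 120, 240 and 360 min, and 5 lower and 0 higher after quantile normalisation (limma). Lpin1, a phosphatidate phosphatase and a known SREBP target, had the largest change of all members. Its WT libraries were 7.47, 7.54 and 7.46 at 0 min, 5.56, 5.60 and 5.22 after 120 min, 4.54, 4.86 and 4.70 after 240 min and 4.93, 4.43 and 4.22 after 360 min. In D310N they were 7.49, 7.63 and 7.41, then 5.58, 5.75 and 5.72, then 4.29, 4.35 and 4.41, then 4.13, 4.37 and 4.76. No library from 120 min on was as high as the lowest one at 0 min in either genotype (WT at 240 min -2.79 ± 0.14 SE, adjusted p = 6.29e-18, limma). Stard4, a cytosolic sterol carrier, was 0.29 ± 0.09 SE higher at 60 min and -1.08 ± 0.09 SE at 240 min. Npc1, the membrane protein that exports lysosomal cholesterol, and Soat1, which esterifies cholesterol, fell by 0.81 ± 0.05 and 0.77 ± 0.07 SE at 240 min. Npc2, the lumenal partner of Npc1, was 0.70 ± 0.04 SE higher at 240 min on the deposited scale, whereas quantile normalisation gave -0.20.

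**Figure D2:**
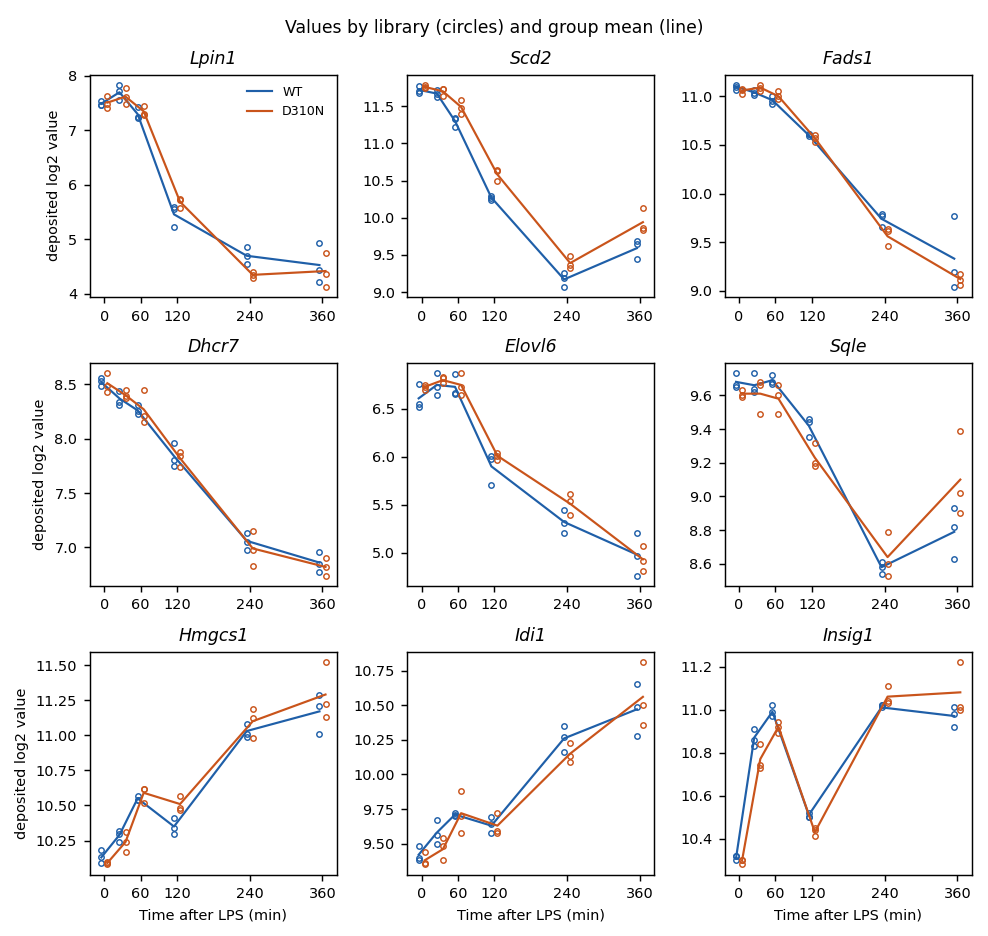
Deposited log2 value (y axes) against time after LPS in min (x axes) for 9 members, with each library as a circle and the group mean as a line, WT blue and D310N orange. Lpin1, Scd2, Fads1, Dhcr7, Elovl6 and Sqle fall from 60 or 120 min on, while Hmgcs1 and Idi1 rise and Insig1 peaks at 60 min, dips at 120 min and rises again.

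Between neighbouring times, the most members fell from 60 to 120 min, with a median over all 38 of -0.19 in WT, against -0.02 from 120 to 240 min. The fatty acid genes fell more over the later step (median -0.47, against -0.19), as did those of cholesterol movement and lipin (-0.52, against -0.34). From 60 to 120 min in WT 23 members were called over this step (54.1% of all genes were), 20 of them lower (52.6% of members against 28.1% of genes), and in D310N 22 were called (54.8%), again 20 of them lower (27% of genes). In WT, 12 of these 20 fell again by 240 min, among them Scd2, Fads1, Dhcr7 and Lpin1, and 6 rose, namely Acat2, Hmgcs1, Lss, Cyp51, Insig1 and Acaca. The share of all genes with such successive calls was not counted. From 120 to 240 min in WT, 65.3% of all genes were called after quantile normalisation and 64.4% after trimmed mean centring. From 240 to 360 min 22 members were called in D310N (38.9% of genes) and 14 in WT (26.3%). Of these, 17 were higher in D310N (44.7% of members against 18.6% of genes) and 8 in WT (21.1% against 12.3%). The 17 were mostly sterol enzymes and included Msmo1 at 0.60 ± 0.10 SE, Sc5d at 0.59 ± 0.08 SE, Hsd17b7 at 0.55 ± 0.13 SE and Lss at 0.52 ± 0.08 SE. Without the library WT 360 min replicate 1 the WT step counted 26 members (68.4%, against 44.1% of all genes), 16 of them higher. Leaving out WT 360 min replicate 2 or replicate 3 instead left 6 calls each (15.8%, against 9.7% and 9.21% of all genes). The difference of this step between genotypes was not tested.

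Members called in both genotypes had the same LPS directions in D310N cells. Members called were 1 at 30 min (6.64% of genes), 12 at 60 min (38.5%), 23 at 120 min (64%), 31 at 240 min (79.1%) and 28 at 360 min (80%). Called in both genotypes, each time with the same direction, were 1, 9, 21, 28 and 27 members. The share of all genes called in both was not counted. At 360 min Lss (-0.33 in WT, 0.03 in D310N), Nsdhl (-0.20, 0.03) and Insig2 (0.20, -0.01) were called in WT only. Hsd17b7 (-0.01, 0.44) was called in D310N only. Sqle, Dhcr7, Scd2, Elovl6, Fads1, Npc1, Soat1 and Lpin1 were lower at 120, 240 and 360 min in both genotypes. Hmgcs1, Idi1, Insig1, Srebf2, Scap and Npc2 were higher at these times on the deposited scale, but not all of these kept their direction after quantile normalisation. Srebf2 was then called lower at 240 and 360 min in both genotypes, and Npc2 was called lower at 120 and 240 min in both and at 360 min in WT, with -0.03 and no call at 360 min in D310N. Insig1 at 120 min was called lower in D310N (-0.10) and was not called in WT (-0.05), where Hmgcs1 (-0.01) and Srebf2 (-0.02) were not called at 120 min either. At 360 min the D310N cells had 14 members higher and 14 lower, with a median of -0.03 that equalled that of all genes. The split was again 14 and 14 after trimmed mean centring (40.6% and 39.7% of all genes). It was 14 and 18 after quantile normalisation (33.2% and 44.7%). Quantile normalisation shifted the D310N splits to lower calls, from 7 higher and 5 lower to 4 and 10 at 60 min, from 7 and 16 to 2 and 24 at 120 min, and from 12 and 19 to 7 and 20 at 240 min. Of all genes, 16.5%, 25.8% and 32% were then called higher at these times, and 29.8%, 40% and 45.2% lower.

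Differences between the genotypes were small beside the LPS changes. D310N minus WT, averaged over the 6 times, was called for 18 members (47.4%, against 48.1% of all genes), 13 of them higher (34.2% against 22.7%) and 5 lower (13.2% against 25.4%), with a median of 0.04 beside 0.00. The share of members that differed was thus that of genes at large. Scd2 was highest in D310N over WT (0.19 ± 0.03 SE, adjusted p = 5.85e-07, limma), followed by Fasn (0.16 ± 0.03 SE, adjusted p = 7.15e-05), Acaca (0.16 ± 0.02 SE, adjusted p = 1.55e-07) and Hsd17b7 (0.13 ± 0.05 SE, adjusted p = 0.0433), whose call held in 23 of 47 alternatives. Fads2 (-0.17 ± 0.05 SE, adjusted p = 0.00392) and Npc2 (-0.16 ± 0.02 SE, adjusted p = 8.15e-10) were lower. Averaging each replicate number over the times and comparing 3 values with 3 gave 10 calls (26.3%, against 32.9% of all genes). The lower level of proliferation genes named above moved with this comparison, and its part in the result was not tested.

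**Figure D3:**
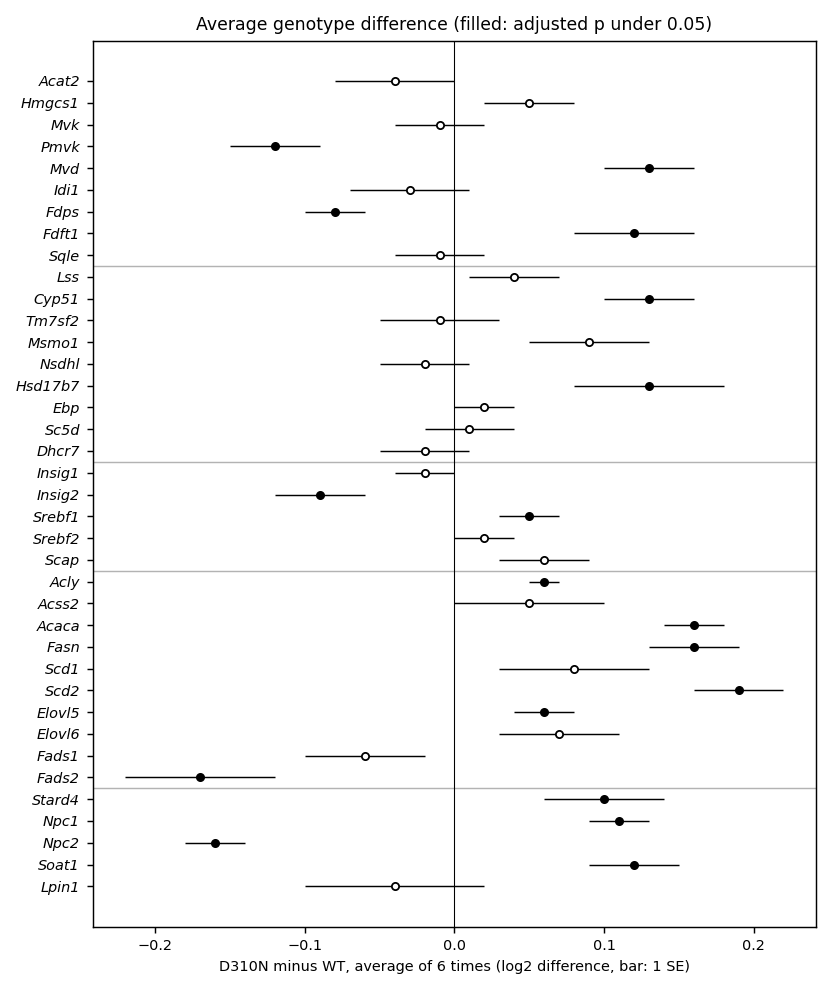
Difference D310N minus WT averaged over the 6 times (x axis, log2; bar, 1 SE) for each of 38 members in role order, filled where the adjusted p is under 0.05. Most differences lie within 0.1 of 0; Scd2 at 0.19 lies farthest to the right, and Fads2 at -0.17 and Npc2 at -0.16 farthest to the left.

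By time, 1 member was called at 0 min (10.7% of all genes), 1 at 30 min (12.2%), 4 at 60 min (12.9%), 3 at 120 min (17.7%), 8 at 240 min (17%) and 12 at 360 min (16.3%). At 0 and 30 min the member was Npc2. In unstimulated WT cells Npc2 stood at 14.02, 13.99 and 13.99 and in D310N at 13.87, 13.91 and 13.80. At 60 min the values were 14.10, 14.09 and 14.09 against 13.83, 13.91 and 13.87, and at 240 min 14.68, 14.71 and 14.72 against 14.56, 14.57 and 14.54. The genotypes did not overlap at any of these times (at 60 min -0.22 ± 0.04 SE, adjusted p = 0.000169, limma). At 0 min the adjusted p was 0.018, and it rose to 0.069 without WT 0 min replicate 1 and to 0.151 without D310N 0 min replicate 3. After trimmed mean centring the Npc2 call at 0 min was lost. Then 0 members were called lower and 1 higher (5.92% and 6.07% of all genes). At 360 min the Npc2 difference was -0.06 and not called. At 60 min Pmvk was also lower, and Acaca and Scd2 higher, with adjusted p of 0.0214, 0.0457 and 0.0496; each was lost when single libraries were left out. Insig2 was lower in D310N at 120 min (-0.18 ± 0.06 SE, adjusted p = 0.0432) and at 240 min (-0.19 ± 0.06 SE, adjusted p = 0.0358), calls that also depended on single libraries. At 120 min Scd2 was 0.32 ± 0.07 SE higher (adjusted p = 0.000842, limma), its libraries lying at 10.24 to 10.29 in WT and 10.49 to 10.64 in D310N.

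At 240 min 6 members were higher in D310N (Acaca, Fasn, Mvd, Npc1, Scd2 and Stard4) and 2 lower (Insig2 and Npc2); after quantile normalisation 7 were higher and 0 lower (limma; 7.18% and 7.23% of all genes). Acaca libraries were 9.31, 9.25 and 9.29 in WT and 9.48, 9.57 and 9.60 in D310N, without overlap (0.26 ± 0.05 SE, adjusted p = 0.000473, limma). Npc1 libraries were 11.07, 11.06 and 11.10 in WT and 11.29, 11.27 and 11.26 in D310N, again apart (0.20 ± 0.05 SE, adjusted p = 0.0042, limma). Between 5 and 12 members were called when any 1 library was left out, and the count was 5 without WT 240 min replicate 1, WT 240 min replicate 2 or D310N 240 min replicate 3 (13.2%, against 12%, 12.3% and 11.1% of all genes).

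At 360 min all 12 called members were higher in D310N (31.6% of members, against 6.8% of all genes called higher), and 0 were lower (limma; 2 lower at an unadjusted p under 0.05, and 0 lower after quantile normalisation). They were the sterol enzymes Fdft1, Sqle, Lss, Cyp51, Hsd17b7 and Sc5d, the fatty acid genes Acaca, Fasn and Scd2, and Srebf1, Stard4 and Npc1. Differences ran from 0.15 for Srebf1 to 0.45 for Hsd17b7. The libraries of 12 members, not all of them called, lay wholly above those of WT, and of the 12 called, 9 did not overlap. Of all genes 22.2% did not overlap, counting both directions. The share of all genes wholly above WT is not given, so this member count is not set against genes at large. Hsd17b7, a ketosteroid reductase, depended on the library that stands apart. Its WT libraries were 6.93, 7.73 and 7.70, replicate 1 being the low one, and those of D310N were 7.74, 8.09 and 7.90. With that library left out the difference fell from 0.45 ± 0.13 SE (adjusted p = 0.0171) to 0.19 (adjusted p = 0.189). Without it 7 of 38 members were called, all higher in D310N (7.93% of all genes were called higher, 17.9% in either direction). Of these 7, 5 were in common, namely Acaca, Fasn, Npc1, Scd2 and Stard4, while Insig1 and Srebf2 were added. D310N 360 min replicate 2 was the highest of its group for several sterol enzymes. Without it 4 members were called, all higher: Acaca, Fasn, Npc1 and Scd2 (5.83% of all genes called higher, 14.8% in either direction). A fit to the 6 libraries of this time alone called 0 members (limma, 0.103% of genes). One with a weight for each library called 5, all higher (9.71% of all genes called higher, 21.1% in either direction). The values of the 4 members called with either library left out were Acaca 9.44, 9.51 and 9.61 in WT against 9.75, 9.85 and 9.77 in D310N, Scd2 9.45, 9.68 and 9.64 against 9.84, 10.13 and 9.86, and Npc1 11.05, 11.15 and 11.20 against 11.31, 11.29 and 11.35, with Fasn given below. Of the proliferation genes, 10 of 15 were lower at 360 min (median -0.49), and 6 were lower and 1 higher without WT 360 min replicate 1 (median -0.18); their part in the result was not tested.

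**Figure D4:**
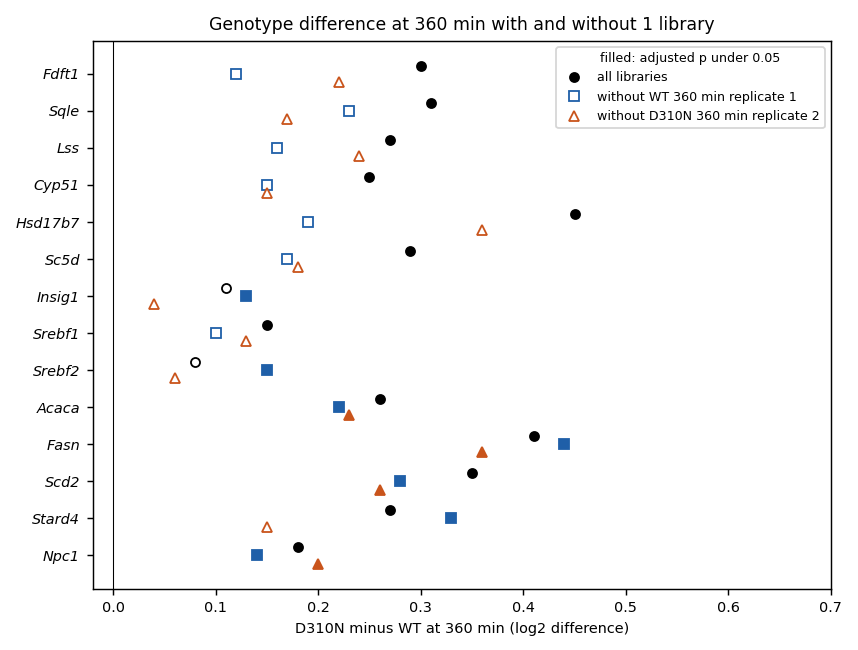
Difference D310N minus WT at 360 min (x axis, log2) for the 14 members called in at least 1 of 3 fits: all libraries (black circles), without WT 360 min replicate 1 (blue squares) and without D310N 360 min replicate 2 (orange triangles), filled where the adjusted p is under 0.05. Acaca, Fasn, Scd2 and Npc1 are filled in all 3, whereas Hsd17b7 moves from 0.45 to 0.19 without the WT library.

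Fads2 was lower in D310N on average. At 0 min its libraries were 9.29, 9.27 and 9.26 in WT and 8.99, 9.26 and 9.09 in D310N, meeting at 9.26. At 240 min they were 8.62, 8.65 and 8.66 against 8.17, 8.51 and 8.53, without overlap. At 360 min WT lay at 8.65, 8.01 and 8.19, with replicate 1 the highest, and D310N at 8.05, 8.22 and 8.17. The genotypes overlapped at 360 min, and no single time was called.

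Whether the LPS response itself differed between genotypes was tested as the difference of the changes from 0 min. 0 members were called at 30, 60 and 120 min (limma; 0%, 0.0686% and 0.935% of all genes; 0, 1 and 6 members at an unadjusted p under 0.05). At 240 min 1 was called, Stard4 (1.95% of genes), and at 360 min 1, Fasn (2.01%). Each is 2.63% of the members, near the share of all genes. A joint test over the 5 times called 1 member, Fasn (adjusted p = 0.0256, against 4.84% of genes called). An unadjusted p under 0.05 was reached by 6 members at 240 min, 14 at 360 min and 11 in the joint test. The difference was above 0 for 5 and below 0 for 1 at 240 min, and for 13 and 1 at 360 min. The share of all genes at this unadjusted level is not given, so these counts are not set against genes at large.

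Fasn fell less in D310N. WT libraries went from 9.77, 9.73 and 9.70 at 0 min to 8.74, 8.69 and 8.86 after 240 min and 8.85, 8.60 and 8.94 after 360 min. D310N libraries went from 9.70, 9.59 and 9.82 to 9.09, 9.07 and 9.07 and then 9.14, 9.32 and 9.16. Unstimulated libraries of the genotypes overlapped, and all D310N libraries at 240 and 360 min lay above all WT ones. The fall at 360 min was -0.94 ± 0.08 SE in WT and -0.49 ± 0.08 SE in D310N, a difference of 0.44 ± 0.11 SE (adjusted p = 0.0239, limma). It kept an adjusted p under 0.05 in 40 of 47 alternatives (0.00574 to 0.266) and the joint test in 45 of 46 (0.00771 to 0.0601); without D310N 360 min replicate 2 these were 0.0676 and 0.0601. Leaving out replicate 1 or replicate 2 of the 0 min group, of either genotype, also ended the call at 360 min (adjusted p of 0.0515 to 0.0731), as did library weights (0.27, adjusted p = 0.0781) and a fit to the compared groups alone (0.266).

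Stard4 followed the same form. WT libraries went from 8.63, 8.81 and 8.80 at 0 min to 7.77, 7.47 and 7.76 after 240 min, and D310N libraries from 8.60, 8.63 and 8.67 to 8.07, 8.05 and 7.99, where the genotypes did not overlap. The change was -1.08 ± 0.09 SE in WT and -0.59 ± 0.09 SE in D310N, a difference of 0.48 ± 0.13 SE (adjusted p = 0.0458, limma). This call held in 22 of 47 alternatives (0.00366 to 0.147). It was lost without WT 0 min replicate 2 or 3, without WT 240 min replicate 1 or 2, and without any 1 of the D310N libraries at 0 or 240 min (0.0563 to 0.147). It also fell just short in several fits that left out a library of another time (0.0503 to 0.0562), and after quantile normalisation (0.0513). At 360 min the difference was 0.38 ± 0.13 SE and not called (adjusted p = 0.137), and without WT 360 min replicate 1 it was 0.45 (adjusted p = 0.0427).

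**Figure D5:**
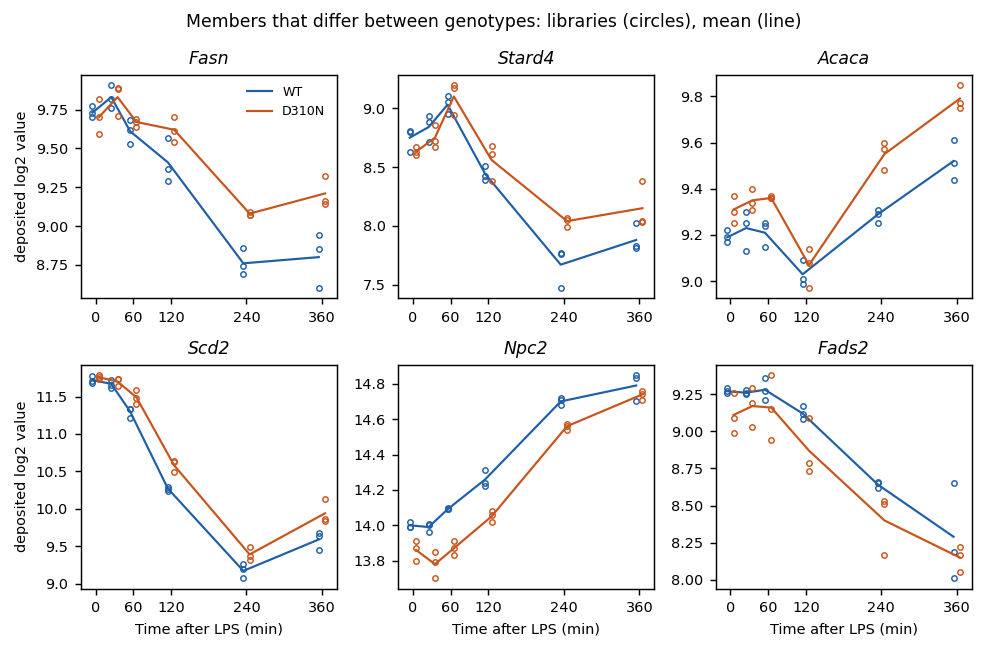
Deposited log2 value (y axes) against time after LPS in min (x axes) for Fasn, Stard4, Acaca, Scd2, Npc2 and Fads2, each library a circle and each line a group mean, WT blue and D310N orange. Fasn and Stard4 overlap at 0 min and lie apart at 240 min, Acaca and Scd2 lie higher in D310N at 240 and 360 min, and Npc2 lies lower until 240 min.

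Neighbouring lists, chosen for their place in lipid metabolism, changed at 240 min in WT as follows, beside 39.6% of all genes called higher and 40.4% lower (33.5% and 45% after quantile normalisation). Of 9 tested oxysterol and LXR genes 6 were higher and 2 lower, and 2 higher and 5 lower after quantile normalisation. Ch25h, the cholesterol hydroxylase, rose by 2.53 ± 0.07 SE, from 7.96, 7.98 and 8.08 to 10.62, 10.49 and 10.50, and Nr1h3, which encodes LXRα, rose by 1.17 ± 0.10 SE. Abca1, the cholesterol exporter, fell by 1.37 ± 0.10 SE. Of 10 tested genes of SREBP processing and sterol-regulated degradation 4 were higher and 2 lower (3 and 7 after quantile normalisation), led by Rnf139, an ER ubiquitin ligase, at 1.77 ± 0.05 SE. Of 20 tested other fatty acid genes 10 were higher and 5 lower (9 and 7), with the acyl-CoA synthetases Acsl1 and Acsl3 at 1.87 ± 0.06 and -1.86 ± 0.08 SE. Of 14 tested glycerolipid genes 6 were higher and 7 lower, and Dgat2, which makes triglyceride, rose by 3.00 ± 0.16 SE. Among 16 tested genes of fatty acid oxidation 4 were higher and 7 lower (3 and 10 after quantile normalisation), with Ppargc1b at 2.26 ± 0.16 and Acadm at -0.80 ± 0.06 SE. Among 10 tested uptake genes 4 were higher and 4 lower (3 and 6), among them the scavenger receptor Msr1 at 1.67 ± 0.07 SE, and among 11 isoprenoid genes 4 were higher and 4 lower, with Pdss1, of ubiquinone synthesis, at 1.73 ± 0.09 SE. The genes named in these lists kept their direction under quantile normalisation.

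Between genotypes, on average over the times, 22.7% of all genes were called higher in D310N and 25.4% lower (27.5% and 21.9% after quantile normalisation). The same lists gave 1 higher and 2 lower of 9 oxysterol and LXR genes, and 3 and 2 of 10 SREBP processing genes. Of 20 other fatty acid genes 4 were higher and 6 lower (6 and 5 after quantile normalisation). The split was 8 and 1 of 14 glycerolipid genes and 5 and 1 of 16 oxidation genes. It was 6 and 3 of 10 uptake genes and 2 and 0 of 11 isoprenoid genes. Ch25h was lower in D310N at 0 min, with libraries at 7.41, 7.61 and 7.50 against 7.96, 7.98 and 8.08 in WT (-0.50 ± 0.07 SE, adjusted p = 1.44e-05, limma). It was also lower at 240 min (-0.59 ± 0.07 SE), with libraries at 9.97, 9.89 and 9.98 against 10.62, 10.49 and 10.50. At 360 min the genotypes overlapped, at 10.88, 10.56 and 10.76 in D310N and 10.45, 10.73 and 10.68 in WT (0.12 ± 0.07 SE, adjusted p = 0.298). Cd36, a fatty acid and lipoprotein receptor, was 0.78 ± 0.06 SE higher in D310N on average.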

How the data were processed

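RNA was sequenced as single-end 75 bp reads. Per the submitters' processing notes, the authors used mm10, STAR 2.5.2a, RSEM 1.2.31 and DESeq2 1.10.1. The deposited table holds log2 values, -4.14 to 19.3, per gene and library; the transformation behind them is not given in the sources used here, and a shrinking one would make differences of weak genes too small. Read depth is unknown, so no counting interval is given.

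Of 16439 rows, 23 with names turned into dates were left out. A gene was tested at 10 or more on the linear scale (3.32 log2) in at least 3 libraries, which 11656 passed. limma 3.58.1 in R 4.3.3 fitted 12 group means to all 36 libraries (24 residual degrees of freedom, intensity trend), two-sided, with Benjamini-Hochberg adjustment within each comparison at 0.05, and was tested on simulated data. The plan assumed a linear table; as this one is log2, no pseudocount was added, and 1 and 8 were tried as alternatives. Alternatives also covered scaling, filter, trend, weights, replicate blocks, the libraries fitted, and leaving out each library. Positions are GRCm38, GENCODE M21; promoters are RefSeq's. Fdps, Fdft1, Cyp51, Tm7sf2, Srebf1, Acss2 and Npc1 share exon bases with another coding gene, and strand use is not stated. Every member may be named; values per library are given for the 6 largest WT changes, the 6 largest average genotype differences called, and members called in the joint test; other values per library were added after they were seen. From other lists up to 4 genes, the largest first, may be named. Members and lists were chosen with earlier results of these data known. A list of 4 further genes is not reported here.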

Additional observations from a re-analysis of the deposited data

Results flagged for a closer look

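A test of the difference in LPS response between genotypes called 1 member at 240 min and 1 at 360 min, each 2.63% of the members, against 1.95% and 2.01% of all genes. Stard4 fell less in D310N than in WT by 240 min, by 0.48 on the log2 scale, and Fasn fell less by 360 min, by 0.44; the joint test over 5 times gave an adjusted p of 0.0256 for Fasn (limma). The Stard4 call held in 22 of 47 alternatives and the Fasn call at 360 min in 40 of 47. Many of these alternatives left out a library outside the groups compared, so the difference itself could not move. Leaving out any 1 of several libraries inside those groups ended either call. Outside the members, the time course of Ch25h differed in the joint test with an adjusted p of 4.31e-05 and that of Rnf139 with 0.0163. For Ch25h this goes with a lower level in D310N from 0 to 240 min and overlapping libraries at 360 min.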

How the results depend on the processing

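Counts of called members were recomputed under each alternative. The share of all genes called moved with the setting too. For D310N minus WT at 360 min it was 16.3% in the main fit, 21.1% with library weights and 0.103% with only the groups compared. For WT at 60 min it was 37.2% in the main fit and 45.4% after quantile normalisation. A changed count below is therefore no result about the members alone. With library weights they were 4 at 0 min, 3 at 30 min, 8 at 60 min and 5 at 360 min for D310N minus WT, 16 for WT at 60 min, 4 for D310N at 30 min, 17 from 30 to 60 min in WT and 14 in D310N, 28 from 240 to 360 min in WT, and 1 at 120 min, 6 at 240 min and 4 in the joint test for the difference in LPS response. With only the groups compared in the fit, they were 2 at 0 min, 2 at 30 min and 0 at 360 min for D310N minus WT, 2 at 30 min and 17 at 60 min in WT, 2 at 30 min in D310N, 17 from 30 to 60 min and 0 from 240 to 360 min in WT, and 1, 3 and 0 at 120, 240 and 360 min for the difference in LPS response. Quantile normalisation gave 2 for D310N minus WT at 30 min, 3 and 15 for WT at 30 and 60 min, 2 for D310N at 30 min, 0 for the difference in response at 240 min and 3 in the joint test. Trimmed mean centring gave 2 for D310N minus WT at 30 min and 0 for the difference in response at 240 min, as did no trend for the latter (0). No filter gave 2 for D310N minus WT at 60 min and 0 for the difference in response at 240 min, and a filter at 50 gave 2 at 30 min. Replicate means, 3 against 3, gave 10 on average over the times.

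The labels do not say that a replicate number marks a shared animal or day. All 3 correlations of same-numbered deviations exceeded 0.1 only for D310N at 120 against 0 min (0.325, 0.373 and 0.131). In D310N, replicates 1 and 2 also exceeded 0.1 at 30, 60, 240 and 360 against 0 min. At 30 against 0 min they were 0.271 and 0.419, with replicate 3 at 0.0674. From 120 to 240 min replicate 1 was 0.0395, and from 240 to 360 min 0.0465. WT correlations ran from -0.249 (30 against 0 min) to 0.126 (60 against 0 min). The main fit takes libraries of different times as independent, also for the average over the times. The replicate block as an additive term gave 2 for D310N minus WT at 30 min, 1 and 2 for the difference in response at 120 and 360 min and 3 in the joint test; as a random effect (correlation 0.0735) the block gave 2, 2 at 360 min and 4 in the joint test.

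Leaving out 1 library at a time gave, for D310N minus WT at 0, 30, 60, 120, 240 and 360 min, 0 to 2, 1 to 3, 1 to 6, 2 to 5, 5 to 12 and 4 to 15 members, and 16 to 20 on average. It gave 1 to 1, 7 to 13, 24 to 28, 28 to 32 and 30 to 33 for WT after LPS, and 1 to 1, 9 to 12, 22 to 25, 29 to 33 and 28 to 29 for D310N. Steps between neighbouring times from 30 min on gave 4 to 11, 19 to 24, 24 to 30 and 6 to 26 in WT, and 6 to 10, 18 to 24, 24 to 27 and 19 to 23 in D310N. The difference in response gave 0 to 0 at 30, 60 and 120 min, 0 to 2 at 240 min, 0 to 3 at 360 min and 0 to 3 in the joint test. The D310N minus WT count at 120 min was 5 without WT 360 min replicate 1.

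Of single member values over all comparisons and alternatives, 54391 kept direction and side of the threshold, 477 lost a call, 420 gained one, and 40 changed sign with a call in at least 1 of the fits compared. Of these, 39 came from quantile normalisation. In WT against 0 min they were Npc2 at 60 min (-0.33); Hmgcs1 (-0.01), Pmvk (0.01), Insig1 (-0.05), Srebf2 (-0.02), Acly (-0.36) and Npc2 (-0.28) at 120 min; Acat2 (0.04), Cyp51 (-0.15), Srebf2 (-0.41), Acly (-0.47) and Npc2 (-0.20) at 240 min; and Mvd (0.19), Fdps (-0.01), Tm7sf2 (0.14), Srebf2 (-0.47), Acly (-0.41) and Npc2 (-0.12) at 360 min. In D310N against 0 min they were Acly (-0.16), Npc1 (-0.23) and Npc2 (-0.36) at 60 min, Insig1 (-0.10), Srebf1 (-0.12), Acly (-0.28) and Npc2 (-0.31) at 120 min, Tm7sf2 (0.23), Srebf2 (-0.23), Acly (-0.36) and Npc2 (-0.14) at 240 min, and Mvd (0.22), Srebf2 (-0.31), Acly (-0.32) and Npc2 (-0.03) at 360 min. Between neighbouring times they were Npc2 from 30 to 60 min (-0.16 in WT, -0.12 in D310N) and Acly from 30 to 60 min in D310N (-0.13), from 60 to 120 min in WT (-0.11) and from 120 to 240 min (-0.10 in WT, -0.08 in D310N). The other was Hsd17b7 at 360 min in WT, at 0.25 without WT 360 min replicate 1. The cause of these changes was not tested. Read depth is unknown, so what low values can show is limited by the filter alone.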
